A study of Mus musculus with 30 samples.

Results

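Aortae of knockout (KO) mice fed a high-fat diet (HFD) were compared with aortae of KO mice fed a standard-fat diet (SFD) across all genes of the deposited count table. Tissue, genotype and diet in the labels picked 7 of the 30 libraries of the series, 4 from KO-HFD and 3 from KO-SFD mice, with 1 library per mouse. The KO mice were males of the C57Bl6J background according to the labels and carried Egfr flox/flox together with SMMHC-Cre. In these mice a tamoxifen-inducible Cre recombinase is driven by the promoter of smooth muscle myosin heavy chain, so deletion is aimed at vascular smooth muscle cells (VSMCs) and leaves Egfr in the other cells of the vessel wall. Both diet groups, and the wild-type (WT) mice set beside them (3 on SFD, 4 on HFD), were given 1 mg of tamoxifen per day on 5 days. Cre was present in WT mice as well, but their Egfr had no loxP sites. HFD was begun 7 days after tamoxifen at an age of 6 weeks and lasted 18 weeks, and SFD was fed over the same time. At dissection fat and connective tissue around the vessels were taken away, and ribosomal RNA was depleted from the total RNA with RiboMinus.

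The total count was 7793529, 6403699 and 8915275 in KO-SFD mice 1 to 3 and 6782444, 10417102, 13052870 and 7831649 in KO-HFD mice 1 to 4, where the numbers only name the mice. Levels are given in FPM, which are counts per 1000000 after edgeR's TMM scaling and are not corrected for gene length, so that they serve to compare mice within a gene. Of the 41128 genes in the table, 25465 had a count in at least 1 KO aorta and 14796 passed the filter on low counts and were tested. Chromosomes 9, X, Y and MT and the part of chromosome 8 beyond Gm7191 held no count in any library. The smooth muscle genes Tagln, Cnn1 and Tpm1 and the endothelial gene Cdh5 lie there, so their expression could not be read.

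The media of the aorta consists of VSMCs, which contract through smooth muscle actin and myosin and build the elastic and collagenous matrix of the wall. EGFR is a receptor tyrosine kinase that binds EGF-like ligands, pairs with ErbB2 and is also switched on by vasoconstrictor receptors, and in VSMCs it is known for its part in growth, matrix turnover and vascular tone. The aorta lies in perivascular fat, which contains white and, in the thorax, brown adipocytes rich in mitochondria, and RNA of that fat enters a whole-tissue library wherever it remains on the vessel. In bulk tissue, fewer cells of a type and less RNA per cell cannot be told apart.

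The libraries differed in their content of cell type markers. Smooth muscle transcripts were present in every KO aorta, with Acta2 (smooth muscle actin) at 4235, 7924 and 7527 FPM in KO-SFD 1 to 3 and at 6420, 7186, 8570 and 8745 FPM in KO-HFD 1 to 4. The 20 white adipocyte markers, in which Plin4 had the most counts, summed to 5704, 2035 and 673 FPM on SFD and to 672, 753, 657 and 560 FPM on HFD. KO-SFD 1 and KO-SFD 2 thus stood above all other KO aortae, whereas KO-SFD 3 lay inside the range of the HFD group. The mean log2 level of these markers, used below as an adipocyte score, was 6.76, 5.35 and 3.19 on SFD and 2.84, 3.50, 3.01 and 2.21 on HFD. KO-SFD 1 also carried the immunoglobulin transcripts Ighm and Igkc at 1279 and 717 FPM, against at most 24.5 and 7.43 FPM in the other KO aortae. The 6 blood markers, with Hbb-bt in front, summed to 23.7 FPM in KO-SFD 1 and to between 235 and 832 FPM elsewhere. Across genes, which are not independent replicates, the mean correlation of KO-SFD 1 with the other KO aortae was 0.931, and those of the other 6 ranged from 0.961 to 0.967. No pair of KO libraries was a copy of each other. What these differences in content contributed to the results was not tested other than by leaving out each mouse and by the fit with the adipocyte score given below.

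**Figure D1:**
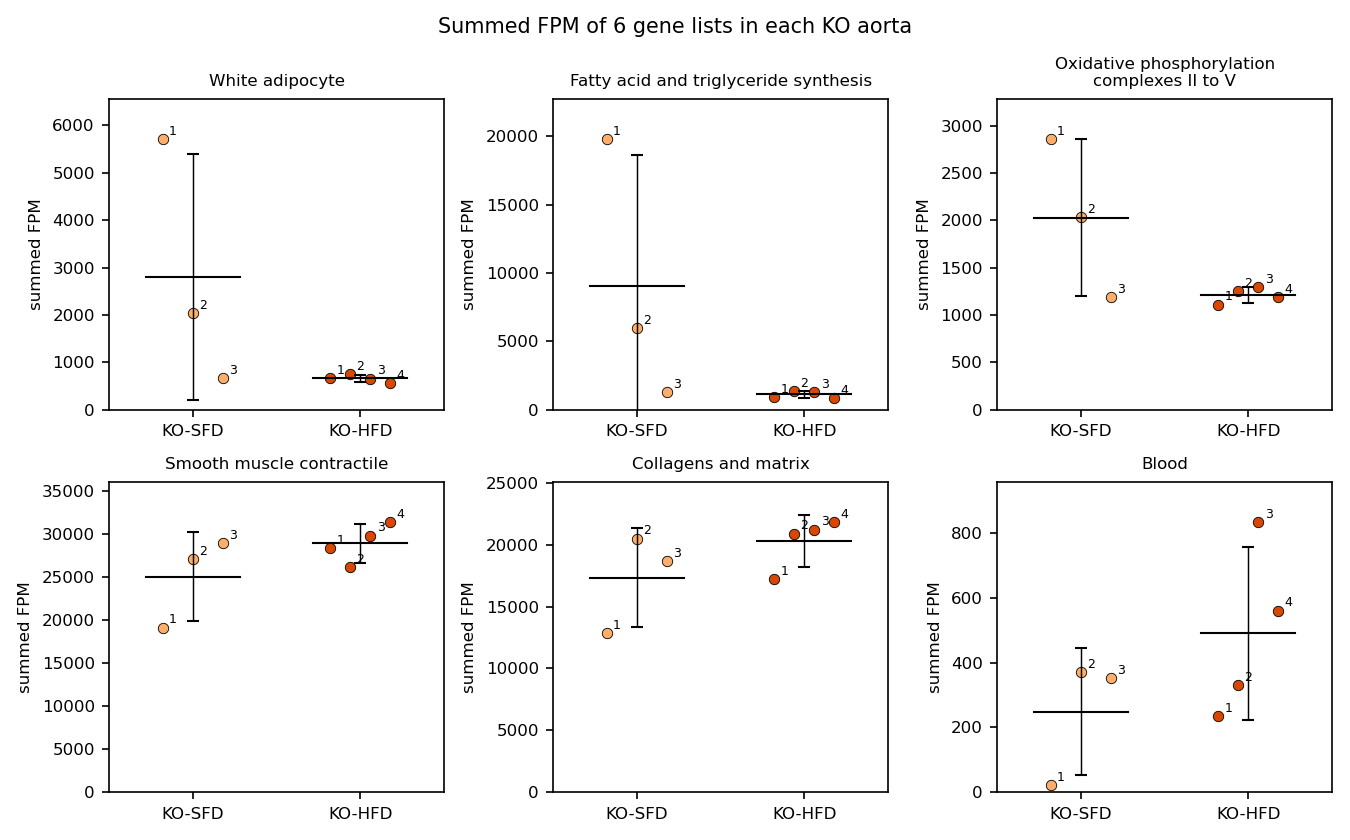
Summed FPM of 6 gene lists (y axis, linear, starting at 0) in each KO aorta, by diet (x axis). Points are single mice with their numbers, horizontal lines are means and error bars are SD (n = 3 for KO-SFD, n = 4 for KO-HFD), cut where they reach below 0. KO-SFD 1 and 2 stand above the HFD mice for the adipocyte, lipid synthesis and oxidative phosphorylation lists, and KO-SFD 3 lies within their range or close to it.

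In edgeR's test no gene passed adjustment between HFD and SFD in KO aortae. With the quasi-likelihood test of edgeR, adjusted by Benjamini and Hochberg's method over 14796 genes, 0 genes came under 0.001 or 0.05, and the lowest edgeR adjusted p over all genes was 0.526. Before adjustment 1162 genes (7.85%) had p under 0.05, of which 406 were higher on HFD (2.74% of the genes tested) and 756 lower (5.11%). These shares are the background for the counts of list members below. DESeq2 gave 1136 genes at that limit and 8 with an adjusted p under 0.05. With library totals in place of TMM the median gene shifted by -0.11 (log2), and of 1225 genes with an unadjusted p under 0.05 only 8.41% were higher on HFD, against 34.9% on the TMM scale. Differences below are therefore relative to the TMM scale, on which the median log2 fold change over all genes was -0.0019 and the median standard error 0.227.

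Effect size gave a second count. Limits on Cohen's d (past 2), on the ratio of the means (past 1.5) and on the mean of the higher group (over 5 FPM) were met together by 74 of 10331 genes with a sufficient level (0.716%), with higher values on HFD in 33 (0.319%) and lower values in 41 (0.397%). Of the 33, 6 were genes of small non-coding RNAs (rRNA, snRNA and miRNA), 18 were protein-coding and 9 of other classes, whereas 37 of the 41 lower genes were protein-coding. The diets did not overlap in 1042 genes (7.04% of those tested), 511 with HFD on top (3.45%) and 531 with SFD on top (3.59%). KO-SFD 3 moved these counts, since without it 729 genes met the effect size limits and 1810 had an unadjusted p under 0.05, 15 of them with an edgeR adjusted p under 0.05. Of the 729, 77 were higher and 652 lower on HFD. By effect size 104 were higher and 45 lower without KO-HFD 1, and 15 higher and 199 lower with library totals. Without KO-SFD 1 only 466 of 15226 genes tested had an unadjusted p under 0.05, a smaller share than the 7.85% with all mice. The lowest edgeR adjusted p was then 0.99998.

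**Figure D2:**
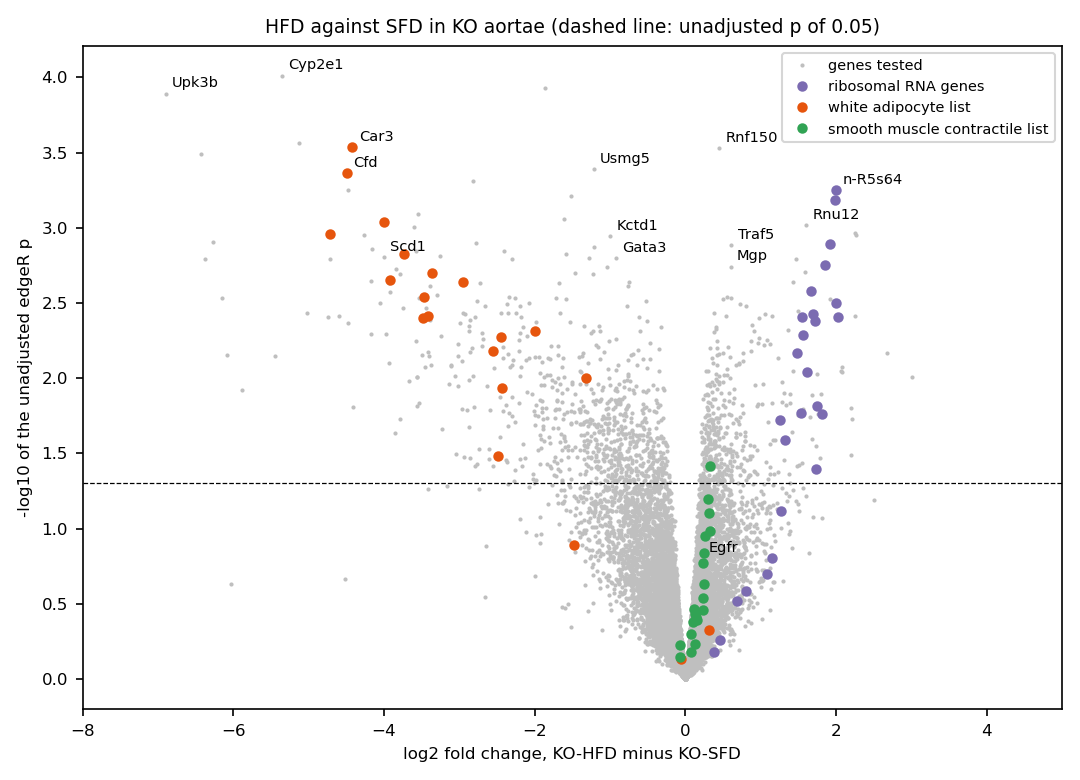
Each point is 1 of the 14796 genes tested in KO aortae, with the log2 fold change of HFD against SFD on the x axis and the -log10 of the unadjusted edgeR p on the y axis. White adipocyte genes spread to the left, ribosomal RNA genes to the right, and the smooth muscle contractile genes lie near 0, mostly on the right side. No point passed an adjusted p of 0.05.

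Egfr, the gene targeted in VSMCs, was present in all KO aortae, which is what counts over all exons and all cell types of the wall can show. Egfr had 26.8, 35.5 and 28 FPM in KO-SFD 1 to 3 and 27.5, 40.6, 39.7 and 33.4 FPM in KO-HFD 1 to 4. The diet groups overlapped, and on each diet every KO mouse lay below every WT mouse, with WT values from 39.5 to 54.3 FPM on SFD and from 51.2 to 65.1 FPM on HFD. In KO the log2 fold change of HFD against SFD was 0.23 (standard error 0.16, edgeR adjusted p = 0.743), and leaving out single mice gave 0.15 (without KO-HFD 2) to 0.38 (without KO-SFD 2). Its partner Erbb2 overlapped between the diets, with 20.1, 13.5 and 18.6 FPM on SFD and 20.5, 19.1, 18.5 and 18.5 FPM on HFD, and its log2 fold change of 0.13 turned to -0.0074 without KO-SFD 2.

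Among 23 receptors, ligands and feedback genes of the ErbB family 19 were tested, 9 with a higher and 10 with a lower mean on HFD, and the median log2 fold change was -0.05 (-0.07 to 0.06 over the mice left out). In each direction 1 had an unadjusted p under 0.05, beside 2.74% and 5.11% of all genes. Hbegf, a ligand of EGFR that is shed from the cell surface, had 8.98, 14.6 and 19.1 FPM on SFD and 14.8, 22.3, 22.3 and 28.7 FPM on HFD. Only KO-HFD 1 fell inside the SFD range, and the log2 fold change was 0.62 (standard error 0.26), or 0.38 without KO-SFD 1 and 0.20 with the adipocyte score as covariate. Erbb4, a receptor for neuregulins, had 21.3, 23.0 and 23.4 FPM on SFD and 27.6, 30.1, 24.6 and 24.2 FPM on HFD. The groups of Erbb4 did not overlap (log2 fold change 0.24, standard error 0.12, edgeR adjusted p = 0.654). Dusp4, a phosphatase that restrains ERK, was the lower one, with 7.50, 3.34 and 1.72 FPM on SFD and at most 1.04 FPM on HFD. Its log2 fold change was -2.24, or -1.50 without KO-SFD 1 and -0.78 with the adipocyte score.

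Genes of fat cells were lower on HFD, with a wide spread among the SFD mice. Of the 20 white adipocyte genes 19 had a lower mean on HFD beside 50.3% of all genes, 17 of them with an unadjusted p under 0.05 beside 5.11% of all genes. The median log2 fold change of the list was -3.16, or -1.77 without KO-SFD 1. Of the 20 genes 4 were lower without overlap, beside 3.59% of all genes, and in the others the groups overlapped. Car3, a carbonic anhydrase abundant in adipocytes, had 1299, 433 and 55.1 FPM in KO-SFD 1 to 3 and 24.0, 51.2, 25.4 and 10.3 FPM in KO-HFD 1 to 4. Every HFD value of Car3 lay below every SFD value, although KO-SFD 3 and KO-HFD 2 were close together. Its log2 fold change was -4.42 (standard error 0.94, edgeR adjusted p = 0.526, DESeq2 adjusted p = 0.0237), and -3.12 without KO-SFD 1. Cfd, which encodes the adipocyte protease adipsin, had 304, 135 and 11.5 FPM on SFD and 4.77, 11.5, 6.24 and 3.83 FPM on HFD, a log2 fold change of -4.49 (standard error 1.00, DESeq2 adjusted p = 0.0245). Without KO-SFD 3 the edgeR adjusted p was 0.0447 for Car3 and for Cfd. The hormone gene Adipoq (adiponectin) had 111, 47.8 and 4.89 FPM on SFD and 2.93, 9.20, 5.52 and 1.37 FPM on HFD. In Adipoq the groups overlapped, because KO-SFD 3 lay below KO-HFD 2 and 3. Retn (resistin) and Acvr1c (a receptor of the TGF-β family) did not overlap and had log2 fold changes of -4.72 and -4.00, the latter -2.49 without KO-SFD 1.

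The gene with the smallest unadjusted p was Cyp2e1 (chromosome 7, 140763739 to 140774987), a cytochrome P450 of ethanol and ketone metabolism. It had 213, 44.6 and 10.2 FPM in KO-SFD 1 to 3 and 1.83, 4.51, 1.28 and 0.821 FPM in KO-HFD 1 to 4. None of the HFD mice reached the lowest SFD mouse (log2 fold change -5.35, standard error 1.01, edgeR adjusted p = 0.526, DESeq2 adjusted p = 0.00108). Without KO-SFD 3 the edgeR adjusted p of Cyp2e1 was 0.0398. The log2 fold change was -3.62 without KO-SFD 1, and in WT aortae it was -4.29 (standard error 0.92). Other genes named by the same rule were Ces1d, a carboxylesterase that hydrolyses lipids, at -4.47 (DESeq2 adjusted p = 0.0307), Acsm3, a medium-chain acyl-CoA synthetase, at -3.55, and Abcd2, a peroxisomal fatty acid transporter, at -2.78 (-1.60 without KO-SFD 1 and -0.65 with the adipocyte score). With the score Ces1d was at -0.80 and Acsm3 at -1.13.

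All 21 genes of fatty acid and triglyceride synthesis had a lower mean on HFD beside 50.3% of all genes, 15 with an unadjusted p under 0.05 beside 5.11%. The median log2 fold change of the list was -2.35, or -1.28 without KO-SFD 1. Of the 21 genes 2 were lower without overlap, beside 3.59% of all genes. Scd1, which desaturates stearoyl-CoA, had 10528, 2656 and 433 FPM on SFD and 170, 399, 409 and 157 FPM on HFD. KO-SFD 3 was only slightly above KO-HFD 2 and 3. The log2 fold change of Scd1 was -4.00 (standard error 1.04), or -2.44 without KO-SFD 1 and -0.17 with the adipocyte score. Fasn (fatty acid synthase) had 5425, 1580 and 218 FPM on SFD and 104, 268, 201 and 96.7 FPM on HFD, so that the groups overlapped (log2 fold change -3.84, or -2.42 without KO-SFD 1). Pcx, the pyruvate carboxylase that refills the tricarboxylic acid cycle and feeds lipid synthesis, had 195, 62.8 and 11.5 FPM on SFD and 5.01, 10.9, 7.12 and 6.16 FPM on HFD, without overlap. Its log2 fold change was -3.60 (standard error 0.88), or -2.31 without KO-SFD 1 and -0.38 with the adipocyte score.

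Brown adipocyte genes were lower too, with 12 of 13 lower, 10 of these with an unadjusted p under 0.05 beside 5.11% of all genes, and a median of -2.74 (-1.73 without KO-SFD 1). Ucp1, the uncoupling protein of brown fat, had 193.6, 73.3 and 0.544 FPM in KO-SFD 1 to 3 and 6.48, 16, 18.2 and 1.5 FPM in KO-HFD 1 to 4. KO-SFD 3 had the lowest Ucp1 value of all KO aortae. The remaining gene of the list, Prdm16, a transcriptional regulator of brown fat that arteries also express, was higher on HFD at an unadjusted p under 0.05. Cholesterol synthesis genes were split, 8 higher and 10 lower of 18, with a median of -0.08 (-0.31 without KO-SFD 3 and 0.08 without KO-SFD 1), and only Insig1, which holds back SREBP, passed an unadjusted p of 0.05 (-1.26, standard error 0.51, or -0.82 without KO-SFD 1 and 0.35 with the adipocyte score).

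Mitochondrial genes were lower on HFD in number and by smaller amounts. Of 35 tested subunits of oxidative phosphorylation complex I, 33 had a lower mean beside 50.3% of all genes, 10 with an unadjusted p under 0.05 beside 5.11%, and the median log2 fold change was -0.61. For complexes II to V these values were 32 of 34, 15 and -0.69, for the tricarboxylic acid cycle 17 of 17, 11 and -0.87, and for fatty acid oxidation 24 of 26, 16 and -1.12. Summed over complexes II to V, KO-SFD 1 to 3 had 2856, 2039 and 1192 FPM and KO-HFD 1 to 4 had 1110, 1254, 1298 and 1187 FPM. KO-SFD 3 again lay among the HFD mice. The complex I subunit Ndufb3 had 44.9, 31.6 and 24.5 FPM on SFD and 20.2, 23.6, 21.9 and 18.3 FPM on HFD, without overlap (log2 fold change -0.67, standard error 0.24, or -0.41 without KO-SFD 1 and -0.14 with the adipocyte score). Atp5c1, the gamma subunit of ATP synthase, had 115, 85.7 and 72.7 FPM on SFD and 62.5, 58.7, 66.2 and 62.1 FPM on HFD, likewise without overlap (-0.54, standard error 0.21, or -0.34 and -0.05 in the same fits). Dld, the shared dehydrogenase of the 2-oxoacid complexes, and Acadm, the medium-chain acyl-CoA dehydrogenase, did not overlap either, at -1.08 and -1.39. Without KO-SFD 1 these were -0.68 and -0.78, and with the score -0.17 and 0.04. Genes lower without overlap numbered 4 of 35 in complex I and 2 of 34 in complexes II to V. They numbered 2 of 17 in the tricarboxylic acid cycle and 2 of 26 in fatty acid oxidation, beside 3.59% of all genes. Leaving out KO-SFD 1 brought the medians to -0.27 for complex I, -0.38 for complexes II to V, -0.35 for the tricarboxylic acid cycle and -0.47 for fatty acid oxidation. Glycolysis genes were less one-sided, with 14 of 20 lower, a median of -0.22 (-0.37 without KO-SFD 3 and -0.01 without KO-SFD 1) and 1 gene, Pdk1, with an unadjusted p under 0.05 (-0.91, or -0.36 without KO-SFD 1).

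Usmg5 (chromosome 19, 47083464 to 47090647), a small protein that holds ATP synthase dimers together, kept the diet groups apart in every mouse. It had 45.5, 35.2 and 21.8 FPM in KO-SFD 1 to 3 and 15.3, 12.6, 17.5 and 13.1 FPM in KO-HFD 1 to 4. Usmg5 met the effect size limits with a Cohen's d of -2.54, and its log2 fold change was -1.22 (standard error 0.27, edgeR adjusted p = 0.526, DESeq2 adjusted p = 0.0368). Without KO-SFD 3 the edgeR adjusted p of Usmg5 was 0.0465. The value was -0.95 without KO-SFD 1 and -0.58 (standard error 0.19, edgeR adjusted p = 0.879) with the adipocyte score.

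When the adipocyte score was entered as a covariate, the medians of these lists turned from negative to positive. They were 0.09 for white adipocyte genes, 0.64 for brown adipocyte genes with 12 of 13 higher, 0.31 for fatty acid and triglyceride synthesis, 0.29 for fatty acid oxidation, 0.15 for the tricarboxylic acid cycle, 0.10 for complex I and 0.16 for complexes II to V. In 3 of the 4 HFD mice the score lay below that of every SFD mouse, so that diet and score share much of their variation, and the white adipocyte list defines the score. In this fit 0 genes had an edgeR adjusted p under 0.05, 807 had an unadjusted p under 0.05 (5.45%), and of these 471 were higher (3.18%) and 336 lower (2.27%) on HFD. The smallest edgeR adjusted p was 0.0736, shared by Pdk4, Pck1 and Cyp2e1. Pdk4, the kinase that switches off pyruvate dehydrogenase, had 122, 45.6 and 9.88 FPM on SFD and 12.6, 28.7, 24.9 and 10.8 FPM on HFD. Its log2 fold change was -1.60 without and 1.27 (standard error 0.21) with the score, and the edgeR adjusted p of the latter ran from 0.0204 without KO-HFD 1 to 0.600 without KO-SFD 3. Pck1, which starts gluconeogenesis and glycerol formation, went from -3.58 to 1.03, and the lipid droplet coat gene Plin2 from -1.13 to 0.82.

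Cyp2e1 remained lower at the same score, by -2.17 (standard error 0.35, edgeR adjusted p = 0.0736). Car3 was at -1.12 (standard error 0.22, edgeR adjusted p = 0.392), but it is itself 1 of the 20 genes that make up the score. Also lower in that fit were Kcnt2, a sodium-activated potassium channel, by -0.68, Bmp6, a bone morphogenetic protein, by -0.60, and the microfibril gene Mfap5 by -0.72, each with an unadjusted p under 0.05 and an edgeR adjusted p of 0.409 to 0.75. For these genes the fit without the score gave smaller values of -0.24, -0.24 and -0.17. With the score, Mfap5 ran from -1.01 to -0.46 over the mice left out.

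**Figure D3:**
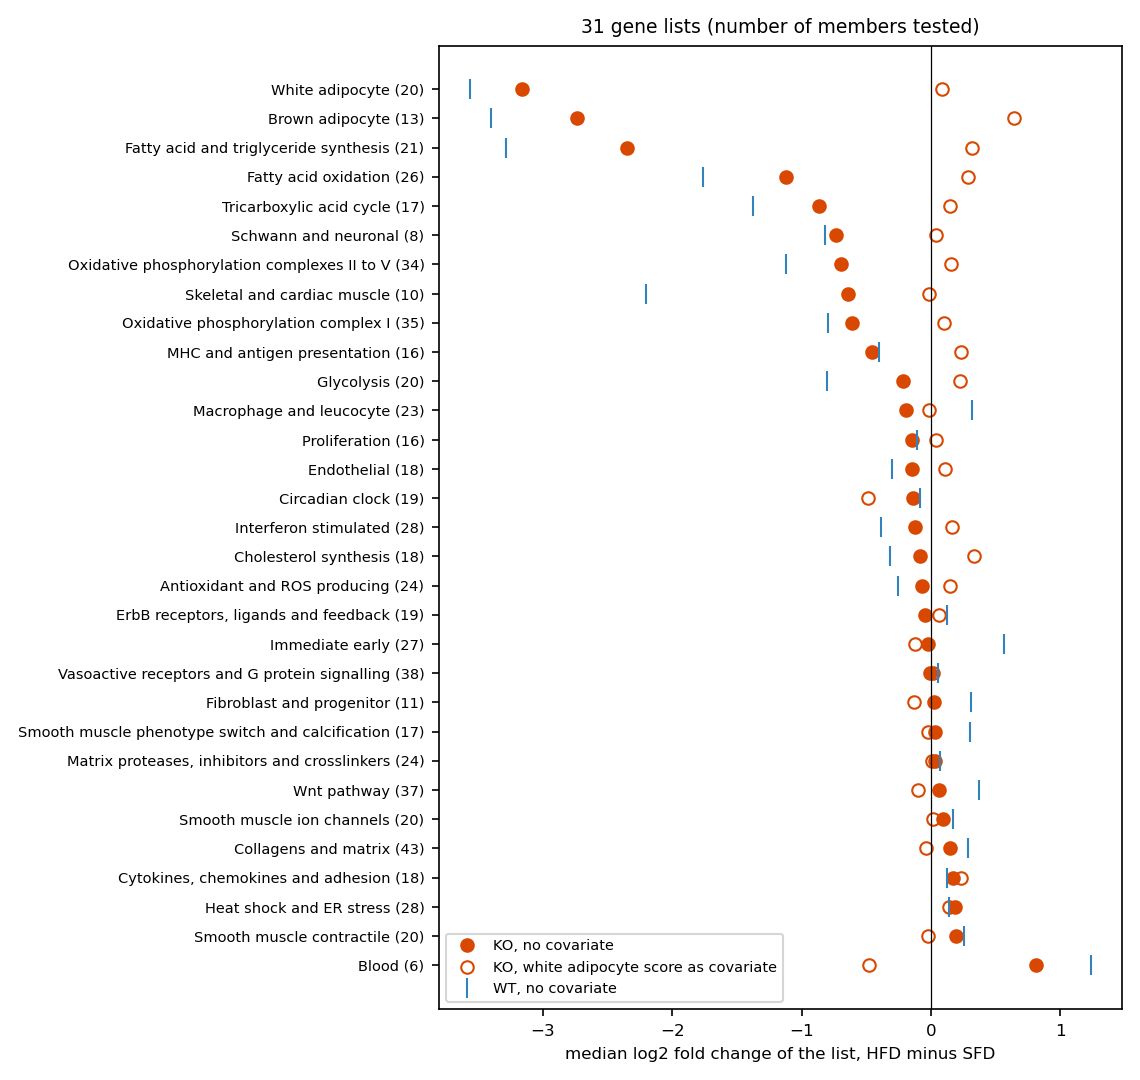
Median log2 fold change of HFD against SFD (x axis) for 31 gene lists (y axis, with the number of genes tested). Filled circles are KO aortae, open circles the same fit with the adipocyte score as covariate and blue bars WT aortae. The lipid and mitochondrial lists lie left of 0 in both genotypes and near or right of 0 with the score, and the immediate early list is at -0.02 in KO and 0.57 in WT.

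Smooth muscle genes differed little. Of the 20 contractile genes and regulators tested, 18 had a higher mean on HFD beside 49.7% of all genes, but only 1 had an unadjusted p under 0.05 (2.74% of all genes). The median log2 fold change was 0.19, or 0.08 without KO-SFD 1 and 0.31 without KO-SFD 3. That gene was Itga7, a laminin receptor, with 95, 106 and 121 FPM on SFD and 111, 133, 129 and 164 FPM on HFD (0.33, standard error 0.14). Mylk, the kinase of the myosin light chain, had 1001, 1295 and 1363 FPM on SFD and 1582, 1322, 1513 and 1608 FPM on HFD. In Mylk only KO-HFD 2 lay within the SFD range, and the log2 fold change was 0.30 (standard error 0.15, edgeR adjusted p = 0.654), or 0.18 without KO-SFD 1. Acta2 stood at 0.24 and Myh11, the smooth muscle myosin heavy chain, at 0.13, and without KO-SFD 1 these were 0.00096 and -0.0029. The whole list summed to 19111, 27045 and 28935 FPM on SFD and to 28311, 26089, 29779 and 31323 FPM on HFD, with KO-SFD 1 alone at the low end. With the adipocyte score the median was -0.02.

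Serum response factor (SRF) binds the CArG box and drives many contractile genes as well as its own. Srf itself had 58.5, 64.4 and 66.9 FPM on SFD and 64.8, 65.9, 71.8 and 70.7 FPM on HFD, a log2 fold change of 0.11 (standard error 0.11, or 0.06 without KO-SFD 1). The light chain gene Myl9 had 796, 1118 and 1145 FPM on SFD and 1176, 1066, 1335 and 1286 FPM on HFD, with KO-HFD 2 inside the SFD range (0.25, standard error 0.17, or 0.10 without KO-SFD 1 and 0.0095 with the adipocyte score). Windows from 250 bases before to 50 bases after the gene start (RefSeq, GRCm38.p6) were searched on both strands, and a CArG box was found in 3 of 16 contractile genes with a window (18.8%), in 0 of 15 white adipocyte genes and in 1.81% of all 27025 genes with a window (1.63% of all 32851 windows). A looser pattern of CC and GG with any 6 bases between them, which contains every CArG box, occurred in all 16 contractile and all 15 adipocyte genes and in 75.1% of all genes. CCAAT was found in 10 of the 16 contractile and 4 of the 15 adipocyte genes beside 41.1% of all genes, CACGTG in 0 and 1 beside 8.09%, and TTANNTAA in 0 and 1 beside 6.93%. A match describes the sequence only. The windows of Myl9 (chr2:156775214-156775513, plus strand) and Srf (chr17:46556113-46556412, minus strand) are printed because they hold 1 and 2 CArG boxes, which are set in capitals.
Myl9: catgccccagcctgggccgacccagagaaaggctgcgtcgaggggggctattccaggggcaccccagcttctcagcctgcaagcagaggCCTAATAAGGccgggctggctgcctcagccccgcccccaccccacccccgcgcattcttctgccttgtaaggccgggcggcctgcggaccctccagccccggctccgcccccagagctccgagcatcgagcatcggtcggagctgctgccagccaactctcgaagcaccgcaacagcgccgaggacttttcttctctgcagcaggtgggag
Srf: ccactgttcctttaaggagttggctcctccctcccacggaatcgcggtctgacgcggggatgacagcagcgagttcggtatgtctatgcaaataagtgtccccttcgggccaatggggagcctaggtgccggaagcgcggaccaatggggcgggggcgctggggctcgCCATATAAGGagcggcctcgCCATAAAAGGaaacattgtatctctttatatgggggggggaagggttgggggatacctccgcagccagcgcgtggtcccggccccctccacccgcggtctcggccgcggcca

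Of 43 collagens and other matrix genes tested, 35 had a higher mean on HFD beside 49.7% of all genes, 2 with an unadjusted p under 0.05 beside 2.74%, and 1 of the 8 lower genes reached that limit beside 5.11%. The 3 called genes were about the share that all genes gave (7.85%). The diets did not overlap in 3 of the 43, beside 7.04% of all genes. The median log2 fold change was 0.14, and -0.03 without KO-SFD 1. Mgp (chromosome 6), a matrix protein made by VSMCs that inhibits calcification, had 623, 789 and 983 FPM in KO-SFD 1 to 3 and 1085, 1212, 1406 and 1155 FPM in KO-HFD 1 to 4. No HFD mouse was as low as any SFD mouse (Cohen's d 2.66, log2 fold change 0.60, standard error 0.16, edgeR adjusted p = 0.526). Leaving out single mice gave 0.45 to 0.77, the adipocyte score gave 0.38, and WT aortae gave 0.40. Acan, the large proteoglycan aggrecan, had 8.84, 15.5 and 14.8 FPM on SFD and 26.5, 17.2, 25.2 and 28 FPM on HFD. The groups did not overlap, although KO-HFD 2 lay near the SFD mice (log2 fold change 0.89, standard error 0.27). Both belong to the 17 genes of phenotype switch and calcification, of which 9 were higher, 8 lower and these 2 passed an unadjusted p of 0.05, with a median of 0.03 (-0.09 to 0.22 over the mice left out).

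Serpine2, an inhibitor of thrombin and plasmin, had 196, 289 and 342 FPM on SFD and 366, 386, 435 and 413 FPM on HFD. It did not overlap between the diets (0.54, standard error 0.16, or 0.34 without KO-SFD 1 and 0.28 with the adipocyte score) and was the only one of 24 matrix proteases, inhibitors and crosslinkers with an unadjusted p under 0.05. Col15a1, a collagen of basement membranes, had 163, 205 and 187 FPM on SFD and 184, 251, 298 and 358 FPM on HFD, where KO-HFD 1 fell within the SFD range (0.56, standard error 0.18). Fbln2, an elastic fibre protein, was lower without overlap, with 112, 119 and 109 FPM on SFD and 78.6, 104, 104 and 93.6 FPM on HFD (-0.25, standard error 0.10). Elastin itself could not be placed, since Eln ran from 443 to 1598 FPM within SFD and from 831 to 1696 FPM within HFD (0.52, standard error 0.41, or 0.16 without KO-SFD 1 and 1.05 without KO-SFD 2). Col1a1, the main fibrillar collagen chain, overlapped as well (0.11, standard error 0.23).

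Receptors and signalling genes that set vascular tone were split, with 18 higher and 20 lower of 38, a median of -0.0036 (-0.09 to 0.01 over the mice left out) and 2 genes in each direction at an unadjusted p under 0.05, beside 2.74% and 5.11% of all genes. Rgs5, which shortens G protein signals in mural cells, had 2042, 1681 and 2764 FPM on SFD and 2362, 3221, 3096 and 3098 FPM on HFD. KO-HFD 1 lay among the SFD mice, and the log2 fold change was 0.45 (standard error 0.18, edgeR adjusted p = 0.582). Adcy1, a calcium-stimulated adenylyl cyclase, had 198, 227 and 289 FPM on SFD and 388, 242, 308 and 312 FPM on HFD, with overlap through KO-HFD 2 (0.39, standard error 0.17). Ptgs1, the constitutive cyclooxygenase, had 24.5, 23.7 and 21.2 FPM on SFD and 17.5, 16.7, 20.7 and 17.1 FPM on HFD, without overlap (-0.36, standard error 0.14). The prostaglandin receptor gene Ptger3 was lower by -1.66, and by -0.73 without KO-SFD 1. Among 20 ion channel genes of smooth muscle 14 were higher, 6 lower and the median was 0.09 (0.02 without KO-SFD 1 and 0.16 without KO-SFD 2), with Clca3a1, a chloride channel regulator of low level, as the only one at an unadjusted p under 0.05.

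In the Wnt pathway 20 of 37 genes were higher and 17 lower, with a median of 0.06 (-0.0074 without KO-SFD 1), and 2 higher and 3 lower genes had an unadjusted p under 0.05 beside 2.74% and 5.11% of all genes. Dkk3, a secreted glycoprotein of the Dickkopf family, had 104, 189 and 196 FPM on SFD and 233, 224, 225 and 257 FPM on HFD, without overlap (0.52, standard error 0.21, and 0.28 without KO-SFD 1). Tcf7l1, a transcription factor of the pathway, had 40.1, 45.1 and 48.6 FPM on SFD and 57.1, 62.8, 52.5 and 55.5 FPM on HFD, also without overlap (0.35, standard error 0.12). The ligand gene Wnt2 had 2.28, 4.46 and 0.634 FPM on SFD and 0.367, 0.563, 0.240 and 0.684 FPM on HFD, so that KO-SFD 3 lay among the HFD mice. Its log2 fold change of -2.35 (standard error 0.68) was the most negative of the list, and -1.57 without KO-SFD 2. The transcription factor Tcf7 (-1.24, standard error 0.47) and the Wnt receptor Fzd4 (-0.34, standard error 0.15) were the other lower genes at that limit, both with overlapping groups.

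Several other protein-coding genes were higher in every HFD mouse, among them Rnf150, which encodes a RING finger protein. It had 57.7, 52.7 and 66.5 FPM in KO-SFD 1 to 3 and 83.0, 81.3, 79.0 and 80.0 FPM in KO-HFD 1 to 4. The HFD mice lay close together above the SFD mice, with Cohen's d at 4.72 and the log2 fold change at 0.45 (standard error 0.097, edgeR adjusted p = 0.526, DESeq2 adjusted p = 0.0268), while its ratio stayed under 1.5. Leaving out single mice gave 0.39 to 0.54 and the adipocyte score 0.35. Traf5, an adaptor of TNF receptors, had 11.3, 9.89 and 13.6 FPM on SFD and 17.7, 16.2, 16.4 and 20.9 FPM on HFD (0.61, standard error 0.16). Klc3, a kinesin light chain, had 2.41, 3.34 and 3.54 FPM on SFD and 5.62, 5.82, 6.08 and 5.88 FPM on HFD, which gave a Cohen's d of 6.77 at a low level (0.91, standard error 0.27). A4galt, a glycosyltransferase, at 0.56, Znhit6, a factor of snoRNP assembly, at 0.60 and Mosmo, a modulator of hedgehog signalling, at 0.51 were likewise higher in every HFD mouse than in any SFD mouse.

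Genes that were lower in every HFD mouse differed in how far the adipocyte score moved them. Gata3, a transcription factor of lymphocytes and other lineages, had 16.1, 20.3 and 13.8 FPM in KO-SFD 1 to 3 and 10.5, 9.58, 5.6 and 9.71 FPM in KO-HFD 1 to 4. Its log2 fold change was -0.92 (standard error 0.24, edgeR adjusted p = 0.526), and it was also -0.92 with the score. Kctd1, a repressor of transcription, had 8.84, 5.85 and 5.26 FPM on SFD and 3.79, 3.47, 3.76 and 2.05 FPM on HFD (-0.99, and -0.92 with the score). Tlcd2, a membrane lipid regulator, had 5.76, 6.55 and 6.44 FPM on SFD and 5.50, 1.69, 1.92 and 2.46 FPM on HFD, with KO-HFD 1 just under the SFD mice (-1.15, and -1.01 with the score). Agmo, which cleaves ether lipids, had 16.7, 11.6 and 8.70 FPM on SFD and 4.40, 5.07, 6.48 and 3.97 FPM on HFD, and its -1.28 became -0.55 with the score. Rasgrp3, an activator of Ras, at -1.53, Inca1, a cyclin partner, at -1.35, and Ptges, the prostaglandin E synthase, at -1.22, the last with overlap, were smaller in size with the score, at -0.61, -0.64 and -0.29. Upk3b, a uroplakin of mesothelium, had 21.2 FPM in KO-SFD 1, 2.65 and 0.363 FPM in KO-SFD 2 and 3 and at most 0.137 FPM on HFD. The groups did not overlap, but only KO-SFD 1 was above 5 FPM and KO-SFD 3 lay near the floor. The log2 fold change was -6.90, or -4.35 without KO-SFD 1 and -4.15 (standard error 2.32) with the score.

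**Figure D4:**
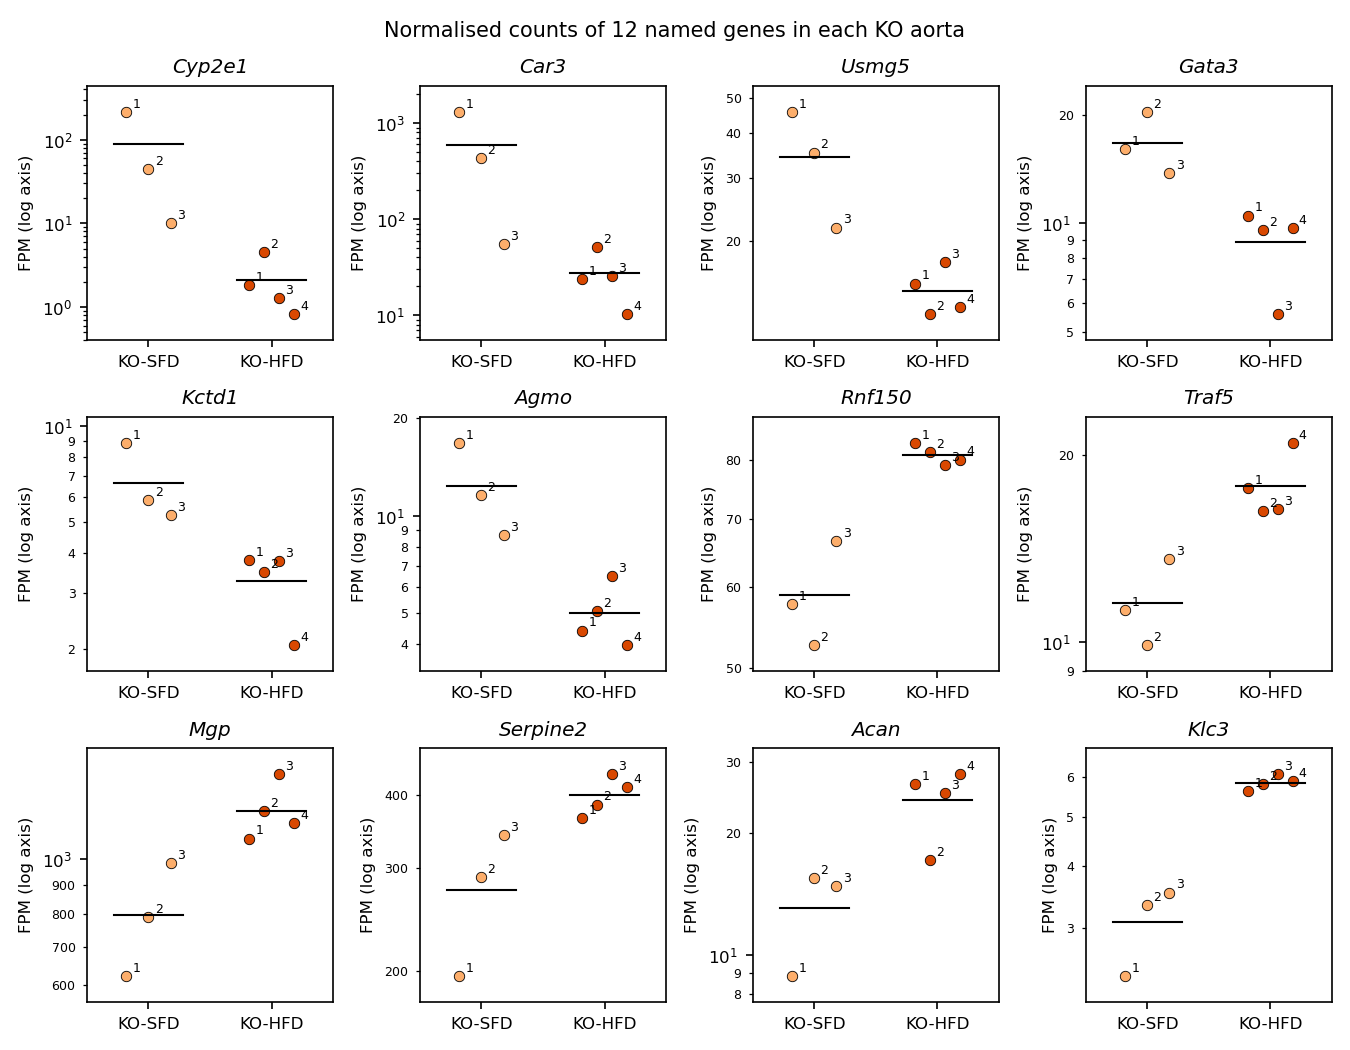
FPM of 12 genes on a log axis (y) in each KO aorta by diet (x); points are single mice with their numbers and horizontal lines are group means. In all 12 genes the 4 HFD mice lie on one side of the 3 SFD mice, closely grouped for Rnf150 and Klc3 and spread over a wide range on SFD for Cyp2e1 and Car3.

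Ribosomal RNA genes were higher on HFD, and small nuclear RNA genes were higher in the greater number. Of these RNAs, 5S rRNA is a part of the large ribosomal subunit that is transcribed apart from the other rRNAs, U4 belongs to the major spliceosome and U12 to the minor one. Copies of their genes are alike to differing degrees, so that reads could be divided among close copies and values of single copies are uncertain. The 5S copies n-R5s64 and n-R5s194 and a pair of U4 copies of this group are printed (GENCODE vM21 transcripts, GRCm38) to show how alike they are, with capitals at bases that differ from the first copy of each kind. They are n-R5s64 (chr12:85718477-85718595, minus strand), n-R5s194 (chr3:4338998-4339116, plus), Gm24407 (chr5:115490254-115490394, plus) and Gm24265 (chr5:115489459-115489599, plus).
n-R5s64: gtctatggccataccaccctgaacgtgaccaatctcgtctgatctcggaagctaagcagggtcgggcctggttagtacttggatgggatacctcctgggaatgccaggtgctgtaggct
n-R5s194: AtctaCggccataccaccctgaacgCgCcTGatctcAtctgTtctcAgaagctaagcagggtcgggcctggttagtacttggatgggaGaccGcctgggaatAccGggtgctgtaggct
Gm24407: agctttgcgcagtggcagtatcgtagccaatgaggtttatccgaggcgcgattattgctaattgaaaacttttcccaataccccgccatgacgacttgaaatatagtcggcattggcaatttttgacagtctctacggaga
Gm24265: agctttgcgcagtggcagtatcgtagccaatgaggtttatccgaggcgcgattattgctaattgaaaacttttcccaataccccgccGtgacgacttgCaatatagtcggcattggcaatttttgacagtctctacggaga
The 5S copy n-R5s194 differed from n-R5s64 at 13 of 119 bases (89.1% identity), and the U4 copies from each other at 2 of 141 (98.6% identity).

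All 26 rRNA genes tested were higher on HFD, 19 of them with an unadjusted p under 0.05 beside 2.74% of all genes and 9 without overlap beside 3.45%, and their median log2 fold change was 1.58. In n-R5s64, KO-SFD 1 to 3 had 11.4, 11.8 and 18.9 FPM and KO-HFD 1 to 4 had 29.8, 42.5, 96.3 and 58.4 FPM. Every HFD mouse lay above every SFD mouse, and the log2 fold change came to 2.01 (standard error 0.46, edgeR adjusted p = 0.526), or 1.62 without KO-HFD 3 and 1.69 with the adipocyte score. The copy n-R5s194 had 27.3, 17.4 and 35.5 FPM on SFD and 37.2, 84.6, 163 and 144 FPM on HFD, where KO-HFD 1 was only just above the SFD mice (2.00, standard error 0.57). Of 96 small nuclear RNA genes 80 were higher, beside 49.7% of all genes, and 16 lower. Of these 22 and 1 had an unadjusted p under 0.05, beside 2.74% and 5.11% of all genes, and the median was 0.45. Rnu12, the U12 RNA, had 88.1, 52.1 and 108 FPM on SFD and 134, 214, 367 and 291 FPM on HFD, without overlap (1.61, standard error 0.39, edgeR adjusted p = 0.526). The U4 copies Gm24407 and Gm24265 were higher by 1.47 and 1.43, the snRNA gene Gm24525 by 1.59 and the rRNA gene Gm26381 by 1.99 (DESeq2 adjusted p = 0.0222).

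The share of rRNA in all counts was 0.195%, 0.141% and 0.244% in KO-SFD 1 to 3 and 0.287%, 0.462%, 0.725% and 0.594% in KO-HFD 1 to 4, what is left after depletion. Small nuclear RNA took 18.0%, 10.5% and 9.97% of counts on SFD and 7.71%, 18.9%, 20.5% and 19.5% on HFD. KO-HFD 1 had the lowest snRNA share of all KO aortae and KO-SFD 1 was just below the other 3 HFD mice. In WT aortae the median log2 fold change of the same rRNA genes was -0.50. Depletion and RNA quality were not measured, and their part in these values was not tested.

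**Figure D5:**
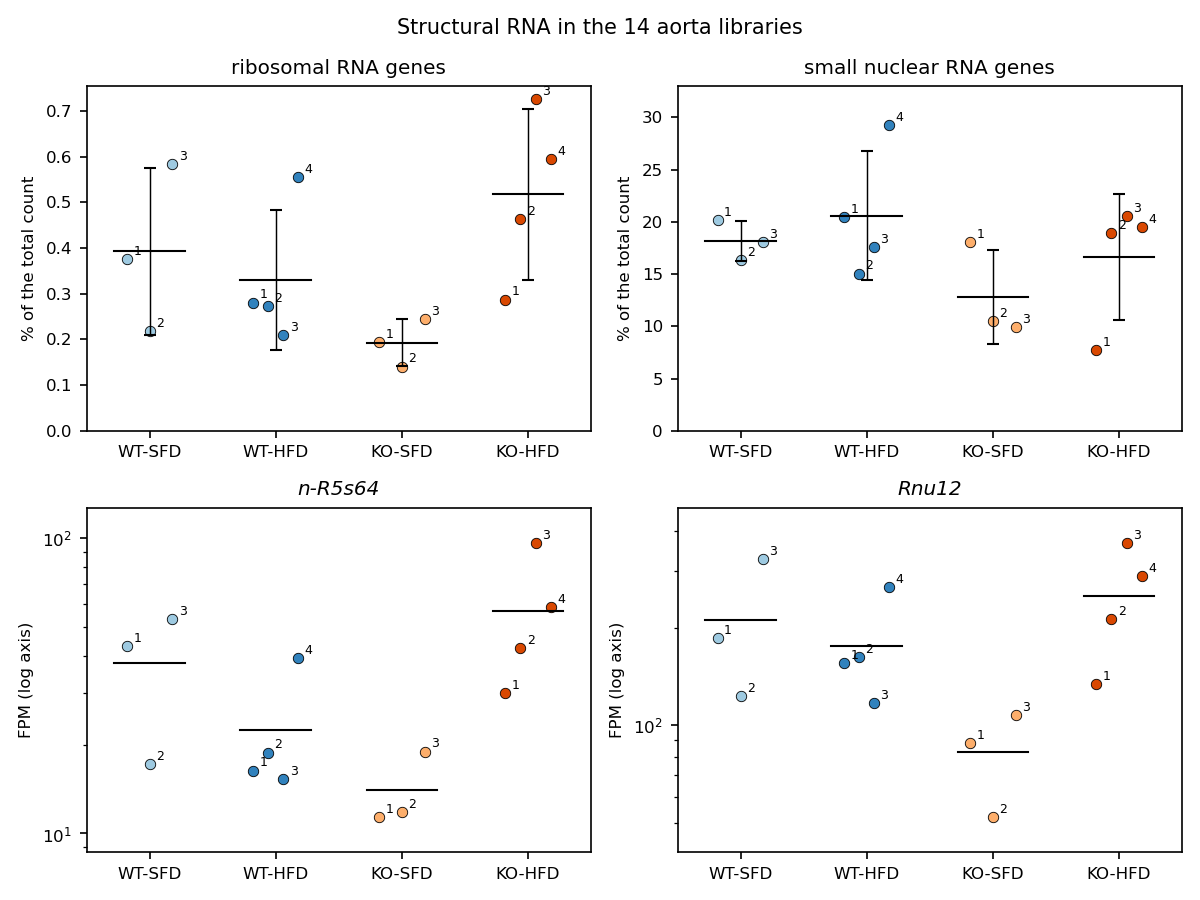
Percentage of counts on rRNA and snRNA genes (linear axes) and FPM of n-R5s64 and Rnu12 (log axes) in the 14 aortae by genotype and diet. Points are single mice, horizontal lines group means and error bars on the linear panels SD; KO-HFD mice lie above KO-SFD mice for rRNA, n-R5s64 and Rnu12, whereas KO-HFD 1 has the lowest snRNA percentage of the KO aortae.

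Leucocyte and immune genes were mostly lower in number. Of 23 macrophage and leucocyte markers 18 had a lower mean on HFD beside 50.3% of all genes, 5 with an unadjusted p under 0.05 beside 5.11%. The median was -0.19, and it ran from -0.47 without KO-HFD 2 to -0.05 without KO-SFD 1. Cd79a, a subunit of the B cell receptor, had 5.22, 3.90 and 6.07 FPM on SFD and 1.10, 3.66, 0.720 and 1.09 FPM on HFD, with KO-HFD 2 just below the SFD mice (-1.60, standard error 0.60, or -2.42 without KO-HFD 2). The B cell marker Ms4a1 was lower by -2.26 with overlap at levels under 7 FPM. Lyve1, of resident macrophages and lymphatic vessels, overlapped too (-0.65, standard error 0.28, or -0.43 without KO-SFD 2). Summed over the list, SFD mice had 419, 362 and 338 FPM and HFD mice 208, 496, 266 and 267 FPM, with KO-HFD 2 at the top.

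All 16 MHC and antigen presentation genes had a lower mean, but none reached an unadjusted p of 0.05, and their median of -0.46 turned to 0.02 without KO-SFD 1 and was -1.15 without KO-HFD 2. Interferon-stimulated genes were split, 9 higher and 19 lower of 28, with a median of -0.12, or 0.04 without KO-SFD 1 and -0.39 without KO-HFD 2. Isg15, an interferon-induced modifier protein, had 0.536, 2.23 and 0.997 FPM on SFD and 1.96, 3.10, 3.20 and 2.46 FPM on HFD (1.145, standard error 0.41, or 1.76 without KO-SFD 2), whereas Ifi27l2a was lower by -2.53, or -1.72 without KO-SFD 1 and 0.30 with the score. Of 18 cytokine, chemokine and adhesion genes 13 were higher and none passed that limit in edgeR, and the median was 0.17 (0.06 without KO-HFD 2 and 0.30 without KO-SFD 1).

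Endothelial genes had a median of -0.15 (-0.31 without KO-SFD 3, -0.02 without KO-SFD 1 and 0.10 with the score), with 13 of 18 lower and 3 at an unadjusted p under 0.05 beside 5.11% of all genes. Pecam1, the adhesion molecule of all endothelium, had 417, 369 and 418 FPM on SFD and 384, 451, 433 and 335 FPM on HFD, with overlapping groups. Kdr, a VEGF receptor dense in capillaries, had 37.6, 13.1 and 4.17 FPM on SFD and 1.47, 3.01, 4.16 and 2.46 FPM on HFD. It was lower by -2.66 (standard error 0.76), by -1.54 without KO-SFD 1 and by -0.20 with the adipocyte score. The 6 blood genes were all higher with a median of 0.81, none at an unadjusted p under 0.05. That median was 0.26 without KO-SFD 1, 1.27 without KO-SFD 3 and -0.48 with the score. Fibroblast genes had a median of 0.02, those of skeletal and cardiac muscle -0.64, of Schwann cells and neurons -0.74 and of proliferation -0.15, and none of these lists held a gene at an unadjusted p under 0.05. Over the mice left out these medians ran from -0.14 to 0.24, from -1.15 to -0.24, from -1.50 to -0.45 and from -0.28 to 0.05.

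Stress and clock genes mostly overlapped between the diets. Of 28 heat shock and endoplasmic reticulum stress genes 23 were higher beside 49.7% of all genes, 2 of these and 1 lower gene had an unadjusted p under 0.05 beside 2.74% and 5.11%, and the median was 0.18. Hsp90aa1, the inducible cytosolic HSP90, had 37.9, 57.5 and 62.5 FPM on SFD and 51.6, 75.5, 88.2 and 85.6 FPM on HFD, with KO-HFD 1 among the SFD mice (0.51, standard error 0.19, or 0.33 without KO-SFD 1). Hspa5, the chaperone BiP, stood at 0.44 (standard error 0.19). Antioxidant genes had a median of -0.07 (-0.20 to -0.0082 over the mice left out), with Sod3, the extracellular superoxide dismutase, higher by 0.29 (0.20 without KO-SFD 1) and Gpx3, the plasma glutathione peroxidase, lower by -1.64, or -1.01 without KO-SFD 1 and 0.15 with the score. Among 19 clock genes Arntl, the positive arm of the clock, ran from 0.725 to 22.8 FPM within SFD and from 0.734 to 16.6 FPM within HFD. Its partner in phase opposition, Per1, was lowest in KO-SFD 2 at 31.5 FPM, the mouse with the highest Arntl. The immediate early genes, 13 higher and 14 lower of 27, had a median of -0.02 (-0.08 to 0.06 over the mice left out) and none at an unadjusted p under 0.05.

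The diet effect in KO was then set against that in WT aortae, which share no mice with it. In WT 2520 genes had an unadjusted p under 0.05 (17%), 841 higher (5.68%) and 1679 lower (11.3%) on HFD, and 0 had an edgeR adjusted p under 0.05. Lower at an unadjusted p under 0.05 in both genotypes were 472 genes, 62.4% of the KO and 28.1% of the WT genes of that direction, and higher in both were 74, which is 18.2% and 8.80%. The lists of fat cells and mitochondria had medians of the same sign in WT, -3.56 for white adipocyte genes and -0.80 for complex I, and WT-SFD mice also differed in adipocyte score, with 7.42, 6.99 and 3.17.

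For the difference itself, the interaction of genotype and diet gave 0 genes with an edgeR adjusted p under 0.05, a smallest adjusted p of 0.830 and 646 genes with an unadjusted p under 0.05 (4.37%), while DESeq2 gave 589 genes at that unadjusted limit and 2 after adjustment. Gata3 had a log2 fold change of -0.92 in KO and 0.29 in WT, a difference of -1.21 (standard error 0.34, edgeR adjusted p = 0.960). For Cd79a these values were -1.60, 2.00 and -3.60 (standard error 0.93, edgeR adjusted p = 0.960). The WT groups of Cd79a overlapped at low levels, with 0.82, 1.33 and 0.58 FPM on SFD and 7.75, 0.80, 4.17 and 2.43 FPM on HFD. In n-R5s64 the KO effect exceeded that in WT by 2.76 (standard error 0.62, edgeR adjusted p = 0.904), and in Rnu12 by 1.87 (standard error 0.53, edgeR adjusted p = 0.960). Edn1, the precursor of the vasoconstrictor endothelin, was at -0.34 in KO and 0.61 in WT, a difference of -0.95 (standard error 0.27, edgeR adjusted p = 0.960). The KO value of Edn1 was -0.52 without KO-SFD 1 and -0.59 with the adipocyte score. Of the immediate early genes, whose median was 0.57 in WT, 2 of 27 reached an unadjusted p under 0.05 for the difference, and of the Wnt genes 6 of 37.

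In kidneys of KO mice, which were sequenced elsewhere and fitted separately, 360 of 15034 genes had an edgeR adjusted p under 0.05 between the diets (2.39%), 236 higher (1.57%) and 124 lower (0.825%) on HFD. Agmo was higher on HFD there, with 3.58, 5.54, 8.86 and 6.94 FPM on HFD and 2.27, 1.24, 1.02 and 2.68 FPM on SFD (1.77, edgeR adjusted p = 0.00664), the opposite side from the aorta. Pcx had 1075, 1013, 1687 and 1347 FPM on HFD and 724, 840, 781 and 904 FPM on SFD (0.66, edgeR adjusted p = 0.0431), also opposite to the aorta. Scd1 had 202, 164, 163 and 70.2 FPM on HFD and 716, 177, 235 and 938 FPM on SFD in kidney, with overlapping groups (-1.79, edgeR adjusted p = 0.0345). The SFD kidneys 1 and 4, which were highest for Scd1, also had the most Cfd, 82.9 and 238 FPM against at most 15.5 FPM in the other KO kidneys, and the part of fat cell RNA in these values was not tested. Sample titles share a number between aorta and kidney for 1 KO-SFD and 1 KO-HFD mouse, so some tissues may come from the same mice, and the difference between the tissues was not tested.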

How the data were processed

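RNA of single aortae was sequenced by the authors, who trimmed reads with cutadapt, aligned them to mm10 with TopHat and deposited raw counts per gene from featureCounts, with 1 column per mouse. The strand setting and the treatment of reads with several matches are not given in the sources used here. Total counts of the 7 KO aortae ran from 6403699 to 13052870.

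From these counts, edgeR 4.0.16 in R 4.3.3 was run with TMM scaling, filterByExpr and the quasi-likelihood test on all 14 aortae with 1 coefficient per group, so that all groups shared the estimate of the spread. p-values were adjusted after Benjamini and Hochberg over all genes tested, and were called at 0.001, the limit of the study, and at 0.05. Kidneys were fitted separately. Effect size used Cohen's d beyond 2 with pooled SD, a ratio beyond 1.5 and a higher mean above 5 FPM. The adipocyte score was the mean log2 count per 1000000 (prior count 2) of the 20 white adipocyte genes. DESeq2 1.42.0, library totals, other filters and limits, the score as covariate and leaving out each mouse were alternatives. The scripts were tested on simulated data. Genes named were Egfr, Erbb2, Rgs5 and Adcy1, the smallest p among genes without overlap and above 5 FPM, the largest ratios by effect size, the smallest p with the covariate, and members of 31 lists. Ighm and Igkc were chosen after their values were seen. The comparison, the lists and the rule were chosen with earlier results of these data known. Chromosomes 9, X, Y and MT and the end of chromosome 8 hold 2693 of 22026 protein-coding genes (12.2%) and had no counts, so those genes are not analysed here. A few single items are not reported here. Promoter windows came from RefSeq and transcripts from GENCODE. Nothing in the labels beyond single mice describes how cages or preparation days were shared, and p-values measure the spread between these mice.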

Additional observations from a re-analysis of the deposited data

Results flagged for a closer look

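Of 138 values examined in the 4 KO-HFD aortae, 7 had 1 mouse far from the other 3, judged by the gap to the nearest mouse as a share of the range, and chance flags about 1 in 20 groups. KO-HFD 1 stood low for Rgs5 (2362 FPM, nearest 3096, share 0.855), for Mfap4, a microfibril protein (238 FPM, nearest 318, share 0.895), and for the percentage of snRNA (7.71%, nearest 18.9%, share 0.872). KO-HFD 2 stood high for Cd79a (3.66 FPM, nearest 1.10, share 0.871), for Adrb3, the adrenergic receptor of fat cells (5.17 FPM, nearest 1.68, share 0.943), and for the summed interferon-stimulated genes (353 FPM, nearest 223, share 0.842). KO-HFD 3 stood high for Dld (28.2 FPM, nearest 23.8, share 0.880).

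Among 103 named genes, some of which were named for their separation in aorta, 4 separated the diets completely in KO aorta and the opposite way in KO kidney. Some of the 103, such as Acvr1c and Rnu12, were not tested in kidney and could not separate there. Over all 12898 genes tested in both tissues 42 did so (0.326%), a share that is therefore not on the same basis. Aorta and kidney titles share a mouse number for 1 KO-SFD and 1 KO-HFD mouse, so some mice may be the same, and the difference between the tissues was not tested. The log2 fold change of HFD against SFD was -3.60 in aorta and 0.66 in kidney for Pcx, -1.28 and 1.77 for Agmo, -1.89 and 0.99 for Ppara, a nuclear receptor of fatty acid oxidation, and 0.61 and -0.22 for Traf5. Without KO-SFD 1 the aorta value was -0.70 for Ppara and -2.31 for Pcx. With the adipocyte score the aorta value of Ppara was 0.42, the same sign as in kidney. In that fit Pcx was at -0.38, Agmo at -0.55 and Traf5 at 0.46 in aorta.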

How the results depend on the processing

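No paired analysis was possible because the labels number no replicates across the diets. Leaving out each mouse in turn gave 466 (of 15226 tested) to 1810 (of 15291) genes with an unadjusted p under 0.05, against 1162 with all mice (7.85%). Genes with an adjusted p under 0.05 numbered 0 to 15, and genes called by effect size 68 to 729 (74). Of the listed genes 31 to 214 had an unadjusted p under 0.05. With all mice this was 133 of 665 tested, beside 7.85% of all genes. The lowest p counts came without KO-SFD 1 and the highest counts without KO-SFD 3. DESeq2 gave 8 genes after adjustment, and of the named genes 7 passed with DESeq2 and 8 without KO-SFD 3. Effect size gave 248 genes with no limit on FPM, 118 with log2 values, 214 with library totals and 12 with d beyond 3. List medians over the mice left out were -0.80 to -0.27 for complex I, -1.18 to -0.35 for the tricarboxylic acid cycle, -2.85 to -1.28 for fatty acid and triglyceride synthesis and -3.69 to -1.77 for white adipocyte genes. With the adipocyte score 66 of the 665 listed genes had an unadjusted p under 0.05, beside 5.45% of all genes. Medians in that fit were -0.020 for contractile genes, 0.10 for complex I, 0.16 for complexes II to V and 0.15 for the tricarboxylic acid cycle. They were 0.29 for fatty acid oxidation, 0.31 for lipid synthesis and 0.088 for white adipocyte genes. Of the 92 named log2 fold changes 39 moved by over 1.5 times or changed sign without KO-SFD 1, 59 with the score and 12 with library totals. Single genes changed sign with the score: Ddt 0.0059, Ptger3 0.024, Gpx3 0.15, Insig1 0.35, Cd36 0.45, Ppara 0.42, Acadm 0.040, Lpin1 0.16, Acta2 -0.029, Myh11 -0.17, Ucp1 2.38, Fasn 0.011, Col1a1 -0.24, Hba-a1 -0.46, Ifi27l2a 0.30 and Adra1a 0.69. Some genes named from the fit with the score had the opposite sign without it. These were Pdk4 at -1.60, Pck1 at -3.58, Plin2 at -1.13, Mdh2 at -0.56, Adrb3 at -2.90 and the antisense gene Ctcflos at -1.27. With library totals Srf was -0.0066 and Col1a1 -0.032. Over the mice left out Erbb2 was -0.0074 to 0.24, Myh11 -0.0029 to 0.24 and Col1a1 -0.11 to 0.38. For the difference from WT, DESeq2 gave 2 genes after adjustment, and genes with an unadjusted p under 0.05 numbered 997 with the score and 501 to 1570 over the mice left out (646). Kidney genes with an adjusted p under 0.05 numbered 695 with DESeq2 and 203 to 422 over the mice left out (360). The causes of these changes were not tested. Depth limits genes of a few FPM, and 3 SFD mice limit all tests.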

Other observations

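Other RNA classes lay closer to 0 than rRNA. Of 81 snoRNA genes, which guide modification of rRNA, 53 were higher and 28 lower on HFD in KO aortae, 3 and 1 with an unadjusted p under 0.05 (beside 2.74% and 5.11% of all genes), and the median log2 fold change was 0.27 in KO and -0.36 in WT. Of 54 miRNA genes 30 were higher and 24 lower, with a median of 0.06. The 402 lincRNA genes had 199 higher and 203 lower and a median of -0.0067.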
